A study of Homo sapiens with 9 samples.

Results

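Transcripts of 10 genes of HLA class II antigen presentation were followed in WM3248, an established human melanoma line. Cells were treated for 24 h with 0, 4 or 6 µM of ARN22089, a compound made to block binding between the GTPase CDC42 and its effectors, and the dose of 0 µM was the DMSO vehicle. Each dose had 3 libraries of poly-A selected RNA, and all groups shared the cell line, the medium and the time of harvest. The genes were a given list: HLA-DRA, HLA-DRB1, HLA-DRB5, HLA-DPA1, HLA-DPB1, HLA-DQA1, HLA-DMA, HLA-DMB, CD74 and CIITA. Of these 10, 9 had spliced transcripts of at least 300 bases and a mean of at least 1 FPKM (fragments per kilobase per mapped library size). They were tested among 11941 genes, of 13764 named in at least 1 library. HLA-DRB5 was listed at 0 in all libraries under the 300-base rule and is described with HLA-DRB1. The labels do not state whether the 3 libraries of each dose are separate cultures, so the p-values given here reflect variation among libraries that could be technical.

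HLA class II molecules are pairs of an alpha and a beta chain that hold peptides from endosomes and show them to CD4 T cells. CD74, the invariant chain, fills the groove of a new class II molecule and guides it to endosomes, and HLA-DM, made of HLA-DMA and HLA-DMB, exchanges the last CD74 fragment for a peptide. CIITA is the coactivator that switches these genes on. It binds no DNA itself but docks on proteins at a conserved promoter module, in which the RFX complex and CREB hold the X box and NF-Y holds the Y box. Professional antigen presenting cells make class II all the time, and a share of melanomas do so as well.

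The promoter sequences are shown because CIITA is known to act through this module. RefSeq promoters (GRCh38.p14, 250 bases before to 50 after a start) covered 8 of the 10 genes, with 9 entries. The X motif searched was AGNNACNGA and the Y motif ATTGG, on both strands, both chosen after the promoters of these genes had been seen, and the motifs do not overlap each other. Both motifs, 15 to 30 bases apart in 1 orientation, were found in the promoters of HLA-DRB1, HLA-DRB5, HLA-DQA1 and HLA-DMA, and in 0.231% of all 35116 promoters. Each searched on its own, the X motif was in 15.3% and the Y motif in 34.6% of all promoters. Capitals mark both motifs in these 60-base windows, written 5′ to 3′ on the strand of the gene.
HLA-DRB1, chr6:32589880-32589939, minus strand: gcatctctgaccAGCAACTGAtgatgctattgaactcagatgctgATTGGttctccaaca
HLA-DRB5, chr6:32530363-32530422, minus strand: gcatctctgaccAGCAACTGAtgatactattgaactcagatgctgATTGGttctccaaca
HLA-DQA1, chr6:32637293-32637352, plus strand: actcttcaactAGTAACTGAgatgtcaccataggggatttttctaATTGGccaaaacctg
HLA-DMA, chr6:32953162-32953221, minus strand: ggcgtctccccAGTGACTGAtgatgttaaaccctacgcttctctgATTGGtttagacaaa
The gap between the motifs was 24 bases in both DRB genes and 25 bases in HLA-DQA1 and HLA-DMA. HLA-DPB1, HLA-DMB and CD74 held the Y motif, in the last 2 on the other strand (CCAAT), with no X motif at that spacing. Their windows mark the Y motif alone.
HLA-DPB1, chr6:33075846-33075905, plus strand: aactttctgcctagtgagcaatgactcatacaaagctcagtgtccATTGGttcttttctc
HLA-DMB, chr6:32941036-32941095, minus strand: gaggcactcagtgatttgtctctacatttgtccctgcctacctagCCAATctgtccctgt
CD74, chr5:150412949-150413008, minus strand: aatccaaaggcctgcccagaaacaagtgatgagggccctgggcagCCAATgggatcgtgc
Neither of the 2 HLA-DPA1 entries held the Y motif. These matches describe letters and show no binding.

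A gene's level is the summed FPKM of its transcripts. Each library was assembled separately, and the pieces assembled for 1 gene differed between libraries. A second value, the consensus exon value, is therefore given where it matters: the mean FPKM over those exonic bases of the gene that recurred in 50% or more of its assemblies. Differences are log2 differences of FPKM + 1 with their SE, so they understate changes of low genes, and adjusted p-values are those of limma over all genes tested. In bulk samples, fewer cells making a transcript and less of it per cell cannot be told apart.

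None of the 9 measured genes passed limma's test at either dose, although HLA-DMA and HLA-DPA1 stood higher at 6 µM in every library. At 4 against 0 µM, 0 of 9 passed, beside 0.0837% of all genes, while 2 were higher (HLA-DPA1 and HLA-DMA) and 1 lower (HLA-DRB1) with an unadjusted p below 0.05, beside 11.0% of all genes. At 6 against 0 µM, 0 of 9 passed, beside 0.117% of all genes, and 2 were higher at an unadjusted p below 0.05, again HLA-DPA1 and HLA-DMA, beside 18.0%. At 6 against 4 µM no gene of the 9 passed or had an unadjusted p below 0.05 with the summed value, beside 0.067% and 4.65% of all genes. Over all 10 genes, with HLA-DRB5 counted as a difference of 0, the median log2 difference was 0.24 at 4 µM and 0.22 at 6 µM. Over the 9 tested it was 0.26 and 0.24, beside -0.0046 and -0.04 over all genes tested. The mean over the 10 was 0.05 at 4 µM and 0.14 at 6 µM, with HLA-DRB1 the lowest. With the consensus exon value described above 0 of 9 passed at 6 against 0 µM as well, beside 4.39% of all genes, and with FPKM times transcript length 0 of 9, beside 3.82%. At an unadjusted p below 0.05 CIITA was then the 1 lower gene at 6 against 0 µM and at 6 against 4 µM with both values. HLA-DPA1 and HLA-DMA were again higher at 6 against 0 µM, and with FPKM times length CD74 was as well, beside 25.2% of all genes with the consensus exon value and 24.1% with FPKM times length. At 6 against 4 µM the shares of all genes were 4.5% with the consensus exon value and 4.64% with FPKM times length.

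**Figure D1:**
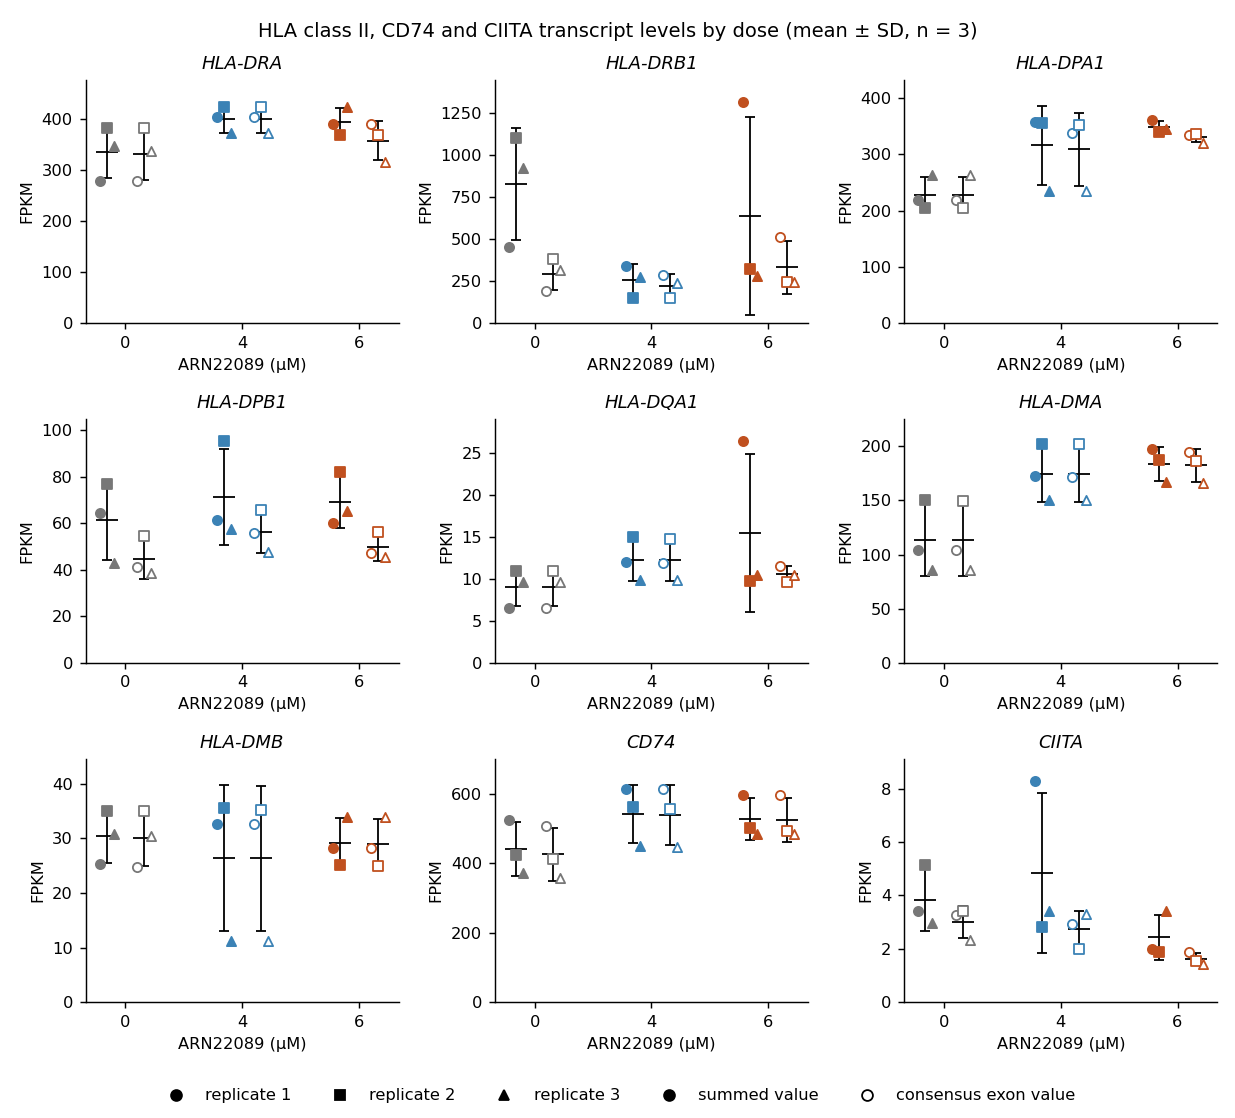
Level of the 9 measured genes (FPKM, vertical axis from 0) at each ARN22089 dose (µM, horizontal axis). Symbols are single libraries by replicate number, filled for the summed and open for the consensus exon value, and bars are mean ± SD (n = 3). The 3 libraries at 6 µM lie above the 3 at 0 µM in HLA-DPA1 and HLA-DMA, and the 2 values part most in HLA-DRB1.

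Without the compound the genes spanned a wide range of levels. CD74 was at 441 ± 77.5 FPKM (SD, n = 3), HLA-DRA at 336 ± 52.5, HLA-DPA1 at 228 ± 30.5 and HLA-DMA at 114 ± 33.5. Lower down came HLA-DPB1 at 61.4 ± 17.1, HLA-DMB at 30.4 ± 4.90, HLA-DQA1 at 9.05 ± 2.25 and CIITA at 3.84 ± 1.16 FPKM. In this order, which leaves out HLA-DRB1, neighbours overlapped between libraries only for CD74 and HLA-DRA; all other neighbours were separated at 0 µM. CD74 ranked above 98.6% of the genes tested and CIITA above 19.2%.

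HLA-DM showed the clearest difference between its chains. HLA-DMA (chromosome 6, 32948618 to 32953097), the alpha chain, was at 105, 151 and 85.6 FPKM at 0 µM, at 172, 202 and 150 FPKM at 4 µM and at 198, 187 and 167 FPKM at 6 µM. All libraries at 6 µM were above all at 0 µM, while at 4 µM the lowest library lay just under the highest at 0 µM. Its log2 difference was 0.65 ± 0.22 at 4 µM and 0.73 ± 0.22 at 6 µM, and limma's adjusted p was 0.373 and 0.143. The 95% interval at 6 µM ran from 0.23 to 1.22. In replicate 3 at 0 µM, the lowest, the transcript measured 1853 bases, against 1268 to 1324 in the others. FPKM times length was 134, 192 and 159 at 0 µM. It was 221, 267 and 199 with 4 µM and 251, 248 and 212 with 6 µM, above 0 µM in each library. The log2 difference was then 0.51 ± 0.16 at 4 µM and 0.56 ± 0.16 at 6 µM (limma's adjusted p = 0.256 and 0.088).

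HLA-DMB (chromosome 6, 32934636 to 32941028), the beta chain, was at 25.3, 35.0 and 30.8 FPKM at 0 µM, at 32.7, 35.5 and 11.1 with 4 µM and at 28.3, 25.0 and 34.0 with 6 µM. The doses overlapped, apart from 1 low library. In that library, replicate 3 at 4 µM, the transcript of HLA-DMB was assembled with 4 exons and 3244 bases, where the annotated chain of 6 exons measured 1367 to 1378 bases in the others. FPKM divides by length, and FPKM times length was 36.1 there, inside the range of 34.1 to 48.4 of the other libraries. HLA-DMB had a log2 difference of -0.34 ± 0.39 at 4 µM, or 0.17 without that library, and -0.06 ± 0.39 at 6 µM (limma's adjusted p = 0.763, 0.740 and 0.959).

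The ratio of the 2 chains within a library does not depend on scaling between libraries. HLA-DMA over HLA-DMB was 4.14, 4.30 and 2.78 at 0 µM, 5.27, 5.69 and 13.5 with 4 µM and 6.99, 7.48 and 4.91 with 6 µM. From FPKM times length it was 3.92, 3.98 and 3.79 at 0 µM, 4.92, 5.52 and 5.50 with 4 µM and 6.43, 7.21 and 4.56 with 6 µM. With both, and with the consensus exon value, each library that received the compound was above each at 0 µM. HLA-DRA over HLA-DMA, from FPKM times length, was 2.65, 2.53 and 2.69 at 0 µM, 2.32, 2.01 and 2.38 with 4 µM and 1.97, 1.901 and 1.91 with 6 µM, without overlap between any 2 doses. With the summed value, however, 6 µM overlapped with 0 µM and with 4 µM. These are among 8 ratios computed, and with 3 libraries against 3 the smallest two-sided p that an exact permutation test allows is 0.1, so none was tested. CD74 over HLA-DMA overlapped between all doses with each way of summing. HLA-DPA1 over HLA-DPB1 was higher without overlap at 6 than at 0 µM with FPKM times length only, and otherwise overlapped. HLA-DOA (chromosome 6, 33004182 to 33009591), whose product forms part of the inhibitor of HLA-DM, was outside the list. It was at 5.73, 11.8 and 6.18 FPKM at 0 µM, 8.46, 10.9 and 8.83 with 4 µM and 6.88, 7.34 and 8.42 with 6 µM, overlapping at both doses. HLA-DMA over HLA-DOA was higher without overlap at 6 than at 0 µM with the summed and the consensus exon value. With FPKM times length all doses overlapped.

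HLA-DPA1 (chromosome 6, 33064569 to 33080748), the alpha chain of HLA-DP, was at 218, 204 and 263 FPKM at 0 µM, at 357, 357 and 235 with 4 µM and at 361, 340 and 345 with 6 µM. The libraries at 6 µM were all above those at 0 µM, and replicate 3 at 4 µM lay among those at 0 µM. Its log2 difference was 0.45 ± 0.19 at 4 µM and 0.62 ± 0.19 at 6 µM, with a 95% interval of 0.19 to 1.05 at 6 µM (limma's adjusted p = 0.439 and 0.151). The 5-exon transcript measured 1617 bases in replicate 3 at 4 µM, 1603 in replicate 2 at 0 µM and 1082 to 1220 in the others. FPKM times length was 266, 327 and 320 at 0 µM. It was 396, 413 and 380 with 4 µM and 391, 394 and 394 with 6 µM, above 0 µM in each library. Its log2 difference was then 0.385 ± 0.10 at 4 µM and 0.37 ± 0.10 at 6 µM (limma's adjusted p = 0.207 and 0.076). At 6 against 0 µM with the summed value, 2 of the 10 genes, HLA-DPA1 and HLA-DMA, had all libraries higher without overlap, beside 10.8% of all genes. All 10 HLA-DPA1 transcripts had a first exon that ended at base 33073471, and 9 of them had the 5-exon chain of HLA-DPA1-248. HLA-DRA over HLA-DPA1 was 1.27, 1.87 and 1.32 at 0 µM, 1.13, 1.19 and 1.58 with 4 µM and 1.08, 1.08 and 1.23 with 6 µM, with all libraries at 6 µM below those at 0 µM.

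The content of the libraries also differed with dose. Transcripts under 300 bases held 20.0% to 50.8% of the FPKM sum at 0 µM, 7.14% to 11.0% at 4 µM and 10.0% to 15.3% at 6 µM. With the longer spliced transcripts rescaled to a fixed sum, the log2 difference at 6 µM was 0.67 for HLA-DMA and 0.55 for HLA-DPA1 (limma's adjusted p = 0.190 and 0.171).

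HLA-DPB1 (chromosome 6, 33075990 to 33089696), the partner of HLA-DPA1, was at 64.4, 76.9 and 43.0 FPKM at 0 µM, at 61.3, 95.2 and 57.5 with 4 µM and at 60.1, 82.1 and 65.3 with 6 µM, and all doses overlapped. The log2 difference was 0.21 ± 0.27 at 4 µM and 0.20 ± 0.27 at 6 µM (limma's adjusted p = 0.781 and 0.730). Its transcripts began at either of 2 first exons on chromosome 6. The first exon that ended at 33076141 was used in all 9 libraries, and another, from 33080369 at the earliest to 33080534, in 5. The second start held 23.1%, 17.1% and 0% of the HLA-DPB1 FPKM at 0 µM, 0%, 0% and 30.1% with 4 µM and 48.4%, 0% and 68.7% with 6 µM. The 2 highest shares were at 6 µM, but the third library of that dose had none, so the doses overlapped. That exon lies within the bounds of HLA-DPA1 on the other strand, and no source used here states whether strand was kept.

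The DR pair is the most abundant class II molecule in most cells. HLA-DRA (chromosome 6, 32439887 to 32445046), its alpha chain, had 1 transcript of 5 exons in every library. It was at 278, 381 and 347 FPKM at 0 µM, 403, 423 and 371 with 4 µM and 390, 368 and 424 with 6 µM. Replicate 1 at 0 µM was lowest, but replicate 2 at 0 µM was above the lowest library at 4 and at 6 µM, so the doses overlapped. Its log2 difference was 0.26 ± 0.15 at 4 µM and 0.24 ± 0.15 at 6 µM (limma's adjusted p = 0.548 and 0.426).

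HLA-DRB1 (chromosome 6, 32578775 to 32589848), the main beta chain, could not be measured as firmly. Its summed value was 455, 1106 and 922 FPKM at 0 µM, 341, 151 and 275 with 4 µM and 1319, 319 and 280 with 6 µM. All libraries at 4 µM were below all at 0 µM, the 1 gene of the 10 of which this held, beside 8.57% of all genes. The log2 difference was -1.67 ± 0.62 at 4 µM and -0.66 ± 0.62 at 6 µM (limma's adjusted p = 0.395 and 0.608). The value at 6 µM was -1.37 without replicate 1 at 6 µM and -0.25 without replicate 3 at 6 µM, the lowest and highest with 1 library left out (limma's adjusted p = 0.283 and 0.866). The consensus exon value was 188, 380 and 316 FPKM at 0 µM, 284, 148 and 237 with 4 µM and 515, 242 and 242 with 6 µM, and its doses overlapped. With it the log2 difference was -0.39 ± 0.39 at 4 µM and 0.14 ± 0.39 at 6 µM (limma's adjusted p = 0.643 and 0.856).

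The assembled structures show where these values part. Of 19 HLA-DRB1 transcripts of at least 300 bases, 11 also had an exon inside HLA-DRB5 or HLA-DRB6, outside the annotated bounds of HLA-DRB1, and these occurred in 8 of 9 libraries. The other library, replicate 2 at 4 µM, had a transcript of 255 bases from HLA-DRB1 into HLA-DRB6, listed at 1378 FPKM and left out by the 300-base rule. Transcripts with 6 exons confined to HLA-DRB1 were assembled in 4 libraries, at 161, 151 and 123 FPKM at 4 µM and 143 FPKM in replicate 3 at 6 µM. In replicate 1 at 6 µM, where the summed value was highest, 1106 of the 1319 FPKM came from a transcript of 329 bases that reached into HLA-DRB5. The annotated mRNAs HLA-DRB1-201 and HLA-DRB5-201 share 8.69% and 8.49% of their windows of 50 bases, and share 0 windows of 100 bases. The sources used here state no read length. HLA-DRB alleles also differ between cell lines and the reference genome.

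**Figure D2:**
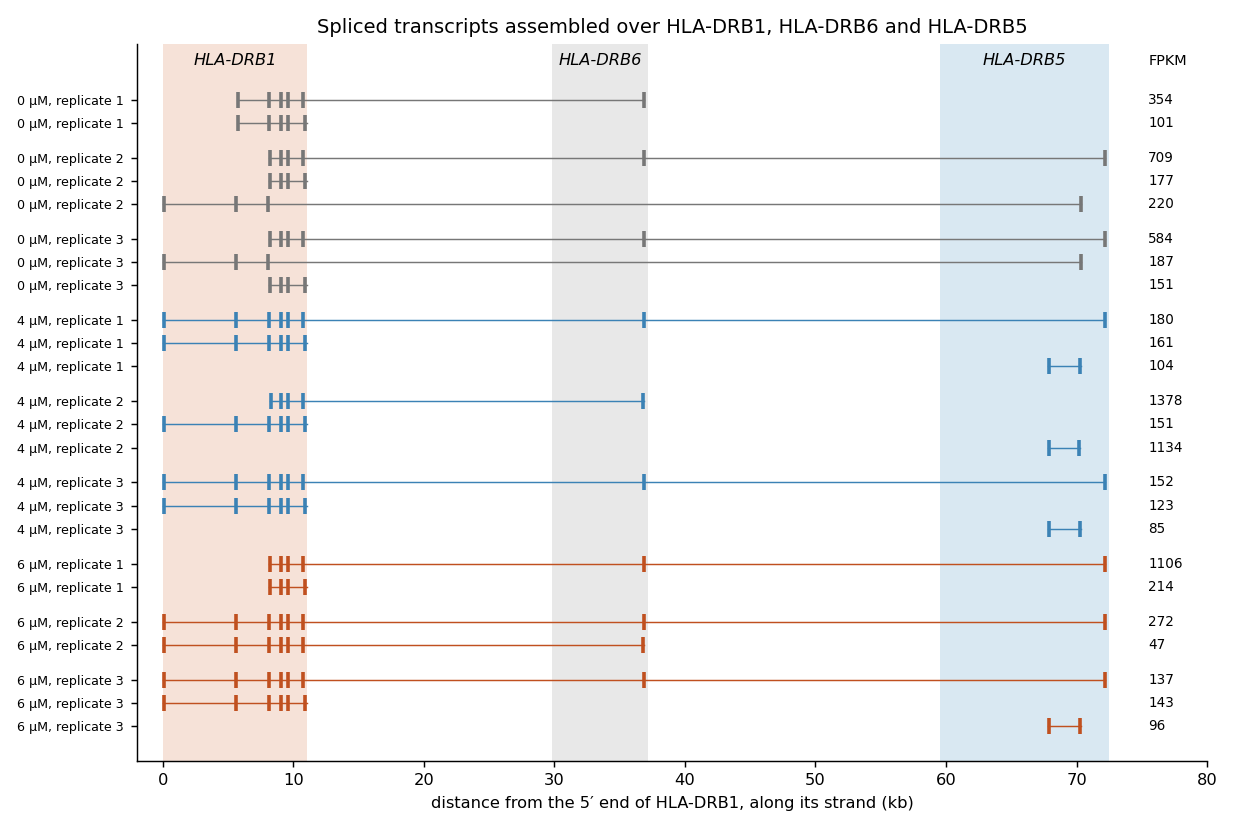
Spliced transcripts of any length named HLA-DRB1 or HLA-DRB5 in each library, by distance from the 5′ end of HLA-DRB1 (kb, horizontal axis). Tall marks are exon centres, lines are introns, shading gives the bounds of HLA-DRB1, HLA-DRB6 and HLA-DRB5, colours are doses and the right-hand numbers are FPKM. Transcripts that run from HLA-DRB1 into the neighbouring genes occur at all doses, and the highest FPKM belong to short or chimeric pieces.

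HLA-DRB5 (chromosome 6, 32517353 to 32530287), a second beta chain gene carried by part of the human HLA haplotypes, had only short pieces. Spliced transcripts of 143 to 263 bases were named HLA-DRB5 in the 3 libraries at 4 µM, at 104, 1134 and 85.2 FPKM, and in replicate 3 at 6 µM, at 96.0 FPKM. At 0 µM unspliced pieces of 103 and 101 bases lay in its second exon in replicates 2 and 3, listed at 50445 and 184470 FPKM. FPKM divides by length, so values of pieces this short are not comparable with those of full transcripts, and these took 8.21% and 17.4% of the FPKM sum of their libraries. Whether any of these reads came from HLA-DRB5 or from HLA-DRB1 cannot be told from the files.

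HLA-DQA1 (chromosome 6, 32637406 to 32655272), the alpha chain of HLA-DQ, was low, at 6.56, 10.9 and 9.63 FPKM at 0 µM, 11.99, 14.96 and 9.84 with 4 µM and 26.4, 9.67 and 10.4 with 6 µM. The 1 high library, replicate 1 at 6 µM, had the gene in 2 separate pieces of 18.4 and 7.98 FPKM, and its consensus exon value was 11.5 FPKM. Its log2 difference was 0.41 ± 0.37 at 4 µM and 0.60 ± 0.37 at 6 µM, or 0.23 ± 0.20 at 6 µM with the consensus exon value (limma's adjusted p = 0.691, 0.422 and 0.503). Its partner HLA-DQB1 (chromosome 6, 32659467 to 32666657), outside the list, was at 10.0, 23.4 and 23.7 FPKM at 0 µM, 28.7, 49.6 and 20.2 with 4 µM and 31.7, 40.1 and 29.3 with 6 µM. At 6 µM each of its libraries was above those at 0 µM, with a log2 difference of 0.88 ± 0.39 (limma's adjusted p = 0.287). HLA-DQA1 over HLA-DQB1 with the consensus exon value was 0.652, 0.486 and 0.455 at 0 µM, 0.439, 0.439 and 0.487 with 4 µM and 0.420, 0.239 and 0.358 with 6 µM. At 6 µM all 3 ratios were below those at 0 µM, which did not hold for the summed value, where they were 0.832, 0.241 and 0.355 against 0.657, 0.469 and 0.407.

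CD74 (chromosome 5, 150401639 to 150412910) was assembled as 1 transcript of 8 exons in every library, with the introns of CD74-202. The annotated 9-exon form CD74-201, whose extra exon gives the longer invariant chain, was not assembled in any of them. CD74 was at 525, 425 and 373 FPKM at 0 µM, at 615, 560 and 450 with 4 µM and at 598, 502 and 484 with 6 µM. With this summed value the highest library at 0 µM was above the lowest at 4 and at 6 µM, so the doses overlapped. The log2 difference was 0.30 ± 0.18 at 4 µM and 0.27 ± 0.18 at 6 µM, with 95% intervals of -0.11 to 0.71 and -0.14 to 0.68 (limma's adjusted p = 0.568 and 0.469). FPKM times length was 735, 616 and 518 at 0 µM, 914, 808 and 665 with 4 µM and 882, 797 and 756 with 6 µM. With it all libraries at 6 µM were above all at 0 µM, while 0 and 4 µM overlapped. Its log2 difference was then 0.35 ± 0.16 at 4 µM and 0.39 ± 0.16 at 6 µM (limma's adjusted p = 0.364 and 0.194). CD74 over HLA-DRA was 1.36 ± 0.459 at 0 µM, 1.354 ± 0.157 at 4 µM and 1.346 ± 0.194 at 6 µM (SD, n = 3).

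CIITA (chromosome 16, 10866206 to 10943021), the coactivator of the other 9 genes, was the lowest of the 9 measured. It was at 3.42, 5.14 and 2.95 FPKM at 0 µM, at 8.29, 2.82 and 3.43 with 4 µM and at 1.99, 1.89 and 3.40 with 6 µM. The 1 high library, replicate 1 at 4 µM, took 4.84 FPKM from a 2-exon piece within the gene. Its log2 difference was 0.18 ± 0.36 at 4 µM, or -0.21 without that library, and -0.50 ± 0.36 at 6 µM (limma's adjusted p = 0.878, 0.872 and 0.503). The consensus exon value was 3.28, 3.40 and 2.33 at 0 µM, 2.91, 2.00 and 3.30 with 4 µM and 1.88, 1.55 and 1.43 with 6 µM. With it all libraries at 6 µM were below all at 0 µM, as were those of 19.5% of all genes. Its log2 difference was then -0.10 ± 0.18 at 4 µM and -0.60 ± 0.18 at 6 µM (limma's adjusted p = 0.810 and 0.0918). FPKM times length was 27.3, 28.6 and 21.8 at 0 µM, 20.9, 16.7 and 29.6 with 4 µM and 16.9, 11.1 and 11.996 with 6 µM, where again all libraries at 6 µM were below all at 0 µM, as were those of 19.8% of all genes. Its log2 difference at 6 µM was -0.92 ± 0.24 (limma's adjusted p = 0.0666, the lowest of the 9 genes at that dose with that value). The longest CIITA transcript measured 8126, 8059 and 8822 bases at 0 µM and 4656, 6196 and 8719 with 4 µM. At 6 µM it measured 8498, 5848 and 3750 bases. Bases that were not assembled add nothing to the consensus exon value or to FPKM times length. Their part in these differences was not tested.

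Several promoters are known to start CIITA in different cell types, one of them induced by interferon-gamma, and each gives the mRNA its own first exon. In WM3248 14 of 24 CIITA transcripts, from all 9 libraries, had the first exon that ends at 10877382, as 9 of 20 annotated transcripts do. Another 6 transcripts had the downstream first exon that ends at 10879042, and 4 began inside the gene. The upstream first exon held 3.04 ± 1.22 FPKM at 0 µM, 1.71 ± 0.750 at 4 µM and 1.99 ± 0.806 at 6 µM (SD, n = 3). Transcripts from the downstream exon summed to 0.878, 0 and 0.796 FPKM at 0 µM, 1.37, 0 and 0.914 with 4 µM and 0.763, 0 and 0.560 with 6 µM. Replicate 2 of every dose was listed at 0, and the doses overlapped. Together both starts gave 3.60 ± 0.761, 2.47 ± 1.27 and 2.43 ± 0.841 FPKM at 0, 4 and 6 µM. The most upstream annotated first exons, which end at 10866319 and 10866572, were not assembled.

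**Figure D3:**
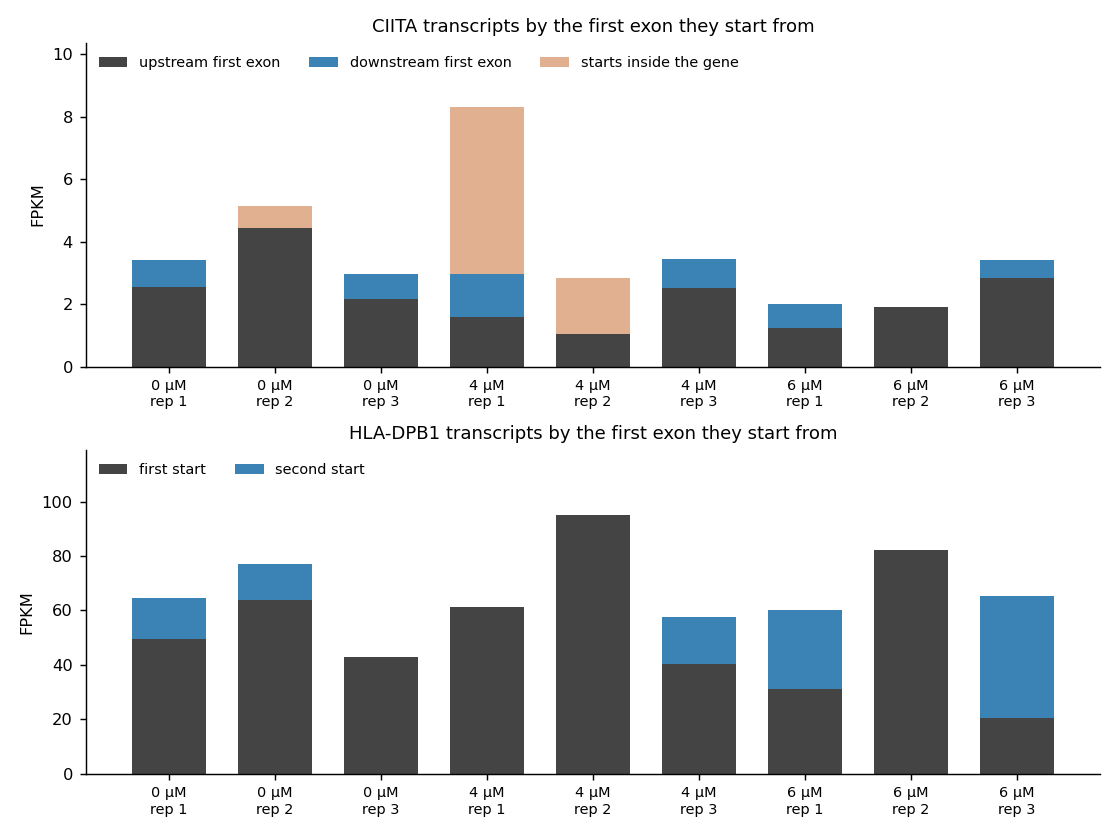
FPKM of CIITA (top) and HLA-DPB1 (bottom) in each library (vertical axes from 0, libraries along the horizontal axes by dose), stacked by the first exon from which transcripts start. The upstream CIITA exon is present in all 9 libraries, the pieces that start inside the gene are largest in replicate 1 at 4 µM, and the second HLA-DPB1 start is largest in replicates 1 and 3 at 6 µM.

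**Figure D4:**
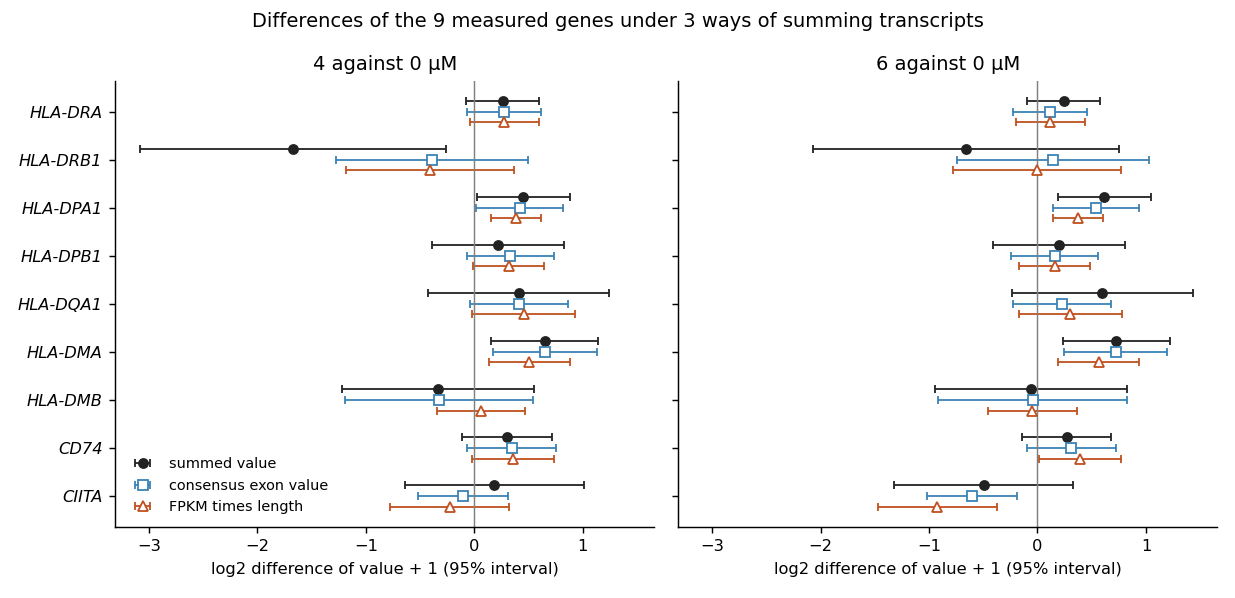
Log2 differences of 4 against 0 µM (left) and 6 against 0 µM (right) for the 9 measured genes, with 95% intervals from limma (horizontal axis). Filled circles are the summed value, squares the consensus exon value and triangles FPKM times length. The intervals, not adjusted for the number of genes, lie wholly above 0 with all 3 values at both doses in HLA-DMA and HLA-DPA1. The differences of HLA-DRA, HLA-DPB1, HLA-DQA1 and CD74 are also above 0 with all 3 values, but their intervals reach below 0 with at least 1 value. HLA-DRB1 at 4 µM is -1.67 with the summed but -0.39 with the consensus exon value.

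Genes of 6 lists that surround the class II pathway were counted beside the listed genes. The list of class II promoter factors and cofactors had 13 of 13 genes tested, of which 0 passed limma's test at 4 or 6 µM. Their median log2 difference was -0.07 at 4 µM and -0.14 at 6 µM. RFXANK, a subunit of the RFX complex, was at 44.4 to 59.6 FPKM at 0 µM, 35.0 to 60.0 at 4 µM and 25.6 to 44.5 at 6 µM (log2 difference at 6 µM -0.58 ± 0.26, limma's adjusted p = 0.279). Its other subunits, named after their values were seen, differed by 0.35 ± 0.11 (RFX5) and -0.23 ± 0.26 (RFXAP) at 6 µM (limma's adjusted p = 0.166 and 0.675). NFYB, a subunit of NF-Y, differed by 0.68 ± 0.35 at 6 µM, but by -0.18 with the consensus exon value (limma's adjusted p = 0.344 and 0.410). CREBBP, a histone acetyltransferase that CIITA recruits, was at 12.1, 15.9 and 15.7 FPKM at 0 µM, 5.78, 5.71 and 7.86 with 4 µM and 9.17, 8.16 and 6.31 with 6 µM. It was lower without overlap at both doses, with log2 differences of -1.06 ± 0.19 and -0.81 ± 0.19, or -0.39 and -0.44 with the consensus exon value (limma's adjusted p = 0.225, 0.0866, 0.331 and 0.148).

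The interferon-gamma route to CIITA had 9 of 12 genes tested and 0 passed, with medians of 0.05 at both doses. IFNGR1, a chain of the interferon-gamma receptor, differed by 0.59 ± 0.16 and IRF2, a factor that acts on the interferon-responsive CIITA promoter, by 0.56 ± 0.16 at 6 µM (limma's adjusted p = 0.112 and 0.138). IRF8, SOCS1 and SOCS3 were listed at 0 everywhere.

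Proteases and other genes of class II loading and turnover had 14 of 15 genes tested, of which 0 passed. Their median was 0.32 at both doses, and 11 of 14 were positive at 4 µM and 10 of 14 at 6 µM, beside 49.3% and 45.9% of all genes. CST3, the cathepsin inhibitor cystatin C, was at 136, 124 and 116 FPKM at 0 µM, 196, 188 and 132 with 4 µM and 206, 216 and 187 with 6 µM, with a log2 difference of 0.69 ± 0.17 at 6 µM (limma's adjusted p = 0.0980). CD63, a tetraspanin of late endosomes, was at 748, 213 and 701 FPKM at 0 µM, 1016, 834 and 639 with 4 µM and 1295, 1322 and 621 with 6 µM, which overlap. MARCHF8, a ubiquitin ligase that removes class II from the surface, was low and listed at 0 in 2 of 3 libraries at 6 µM (log2 difference -0.86 ± 0.44, limma's adjusted p = 0.343). At an unadjusted p below 0.05, 4 of 14 genes were higher at 6 µM, beside 18.0% of all genes with such a p in either direction: CST3 and the proteases CTSS, CTSD and LGMN, the last 3 named after their values were seen.

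The CD74 ligand and its co-receptors had 3 of 6 genes tested and 0 passed. MIF, the cytokine that binds CD74, was at 798, 1220 and 1180 FPKM at 0 µM, 1446, 1607 and 1272 with 4 µM and 1292, 1301 and 1465 with 6 µM, higher without overlap (log2 differences 0.45 ± 0.19 and 0.37 ± 0.19, limma's adjusted p = 0.437 and 0.338). CD44, through which CD74 signals, differed by 0.54 ± 0.22 at 6 µM with the summed but by -0.66 with the consensus exon value (limma's adjusted p = 0.243 and 0.279). DDT, a homologue of MIF, was listed at 0 in 6 of 9 libraries. Replicate 2 at 0, 4 and 6 µM held the rest, at 255, 34.0 and 231 FPKM.

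Of 11 cell-surface genes of contact with T cells, some of them class II ligands and others not, 3 were tested. Of these, 1 was higher and passed limma's test at both doses, beside 0.0837% of all genes passing at 4 µM and 0.117% at 6 µM. The list was chosen with earlier results of these data known. TNFRSF14, a TNF receptor family member that binds BTLA on lymphocytes and is no class II ligand, was at 13.3, 23.8 and 19.5 FPKM at 0 µM, 70.2, 74.9 and 63.2 with 4 µM and 81.95, 79.5 and 80.6 with 6 µM. It rose by 1.86 ± 0.20 at 4 µM and 2.08 ± 0.20 at 6 µM on the log2 scale (limma's adjusted p = 0.0159 and 0.00874). At 4 µM limma's adjusted p was between 0.0508 and 0.0838 without replicate 3 at 0 µM or replicate 1 or 2 at 4 µM. With the replicate number as a block, limma's adjusted p was 0.0829 at 4 µM and 0.0523 at 6 µM. The costimulators CD80, CD86 and CD40 and the class II ligand LAG3 were listed at 0 everywhere. Of 8 further class II genes, HLA-DQB1 and HLA-DOA were tested, 0 passed, and the other 6 were listed at 0.

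**Figure D5:**
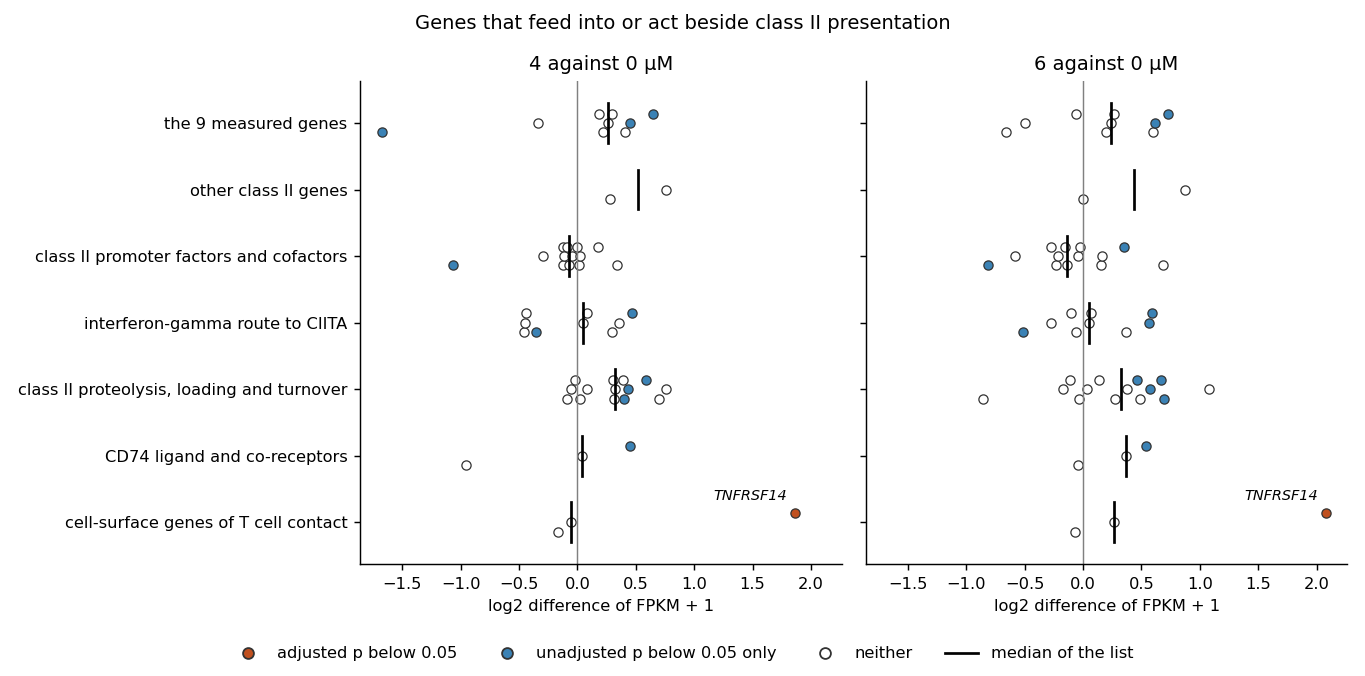
Log2 differences of FPKM + 1 at 4 against 0 µM (left) and 6 against 0 µM (right) for each tested gene of the 9 measured genes and of 6 surrounding lists (rows). Colours give limma's call and vertical bars the median of each row. TNFRSF14, at 1.86 and 2.08, is the single gene that passed the adjusted threshold.

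The label of the cells was checked against markers. All 10 melanocyte lineage genes were measured, with summed levels of 575 to 1523 FPKM at 0 µM, 1401 to 2536 at 4 µM and 1538 to 2225 at 6 µM. All 10 were positive at both doses, beside 49.3% of all genes at 4 µM and 45.9% at 6 µM, and 0 passed limma's test. Their medians were 0.72 and 0.75, beside -0.0046 and -0.04 over all genes tested. The differences of 7 of the 9 measured genes at 4 µM and 6 of 9 at 6 µM had the same sign, among them HLA-DMA and HLA-DPA1. TYR, DCT and MLANA, genes of pigment cells, differed by 1.38 ± 0.37, 1.74 ± 0.33 and 1.404 ± 0.67 at 6 µM (limma's adjusted p = 0.115, 0.0617 and 0.316). The part of this shift in the class II values was not tested. Of 12 genes of leukocytes and professional antigen presenting cells, 9 were listed at 0 in all libraries, among them PTPRC, CD14, MS4A1 and CD3E, and their sum was 5.18 to 7.79 FPKM at 0 µM, 6.55 to 148 at 4 µM and 5.48 to 8.18 at 6 µM. The value of 148 came with CD68 at 142 FPKM in 1 library. Fibroblast genes summed to 21.2 to 77.5, 38.8 to 58.0 and 40.1 to 59.7 FPKM, and those of endothelial cells and keratinocytes to at most 2.27 FPKM.

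Across the 9 libraries, the genes most like the mean standardised level of the 9 measured genes were TMOD1, NXN, HES6, TLE5 and SMPX, with Pearson's r of 0.95, 0.95, 0.94, 0.93 and 0.93. These were the 5 highest of all genes tested, so high values were bound to occur, and the libraries share doses. HLA-DQB1, outside the list, had an r of 0.71 and HLA-DOA of 0.47. TLE5, of the Groucho family of corepressors, was at 99.4, 120 and 104 FPKM at 0 µM, 130, 135 and 112 with 4 µM and 130, 126 and 123 with 6 µM, while TMOD1 was listed at 0 in 3 libraries. The mean standardised level itself was lowest in replicates 1 and 3 at 0 µM (-0.69 and -0.67) and in replicate 3 at 4 µM (-0.64), and highest in replicate 1 at 6 µM (0.62).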

How the data were processed

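The deposited files are Cufflinks transcript assemblies, 1 per library, whose attribute column holds FPKM values (fragments per kilobase of transcript, scaled to mapped fragments) among other text fields. The submitters' processing notes list Cufflinks 2.2.1 beside SAMtools 1.9, R 4.0.3, Bowtie2 2.2.7, TopHat2 2.1 and Trimmomatic. The notes name GRCh37, but the coordinates match GRCh38, which is used here. The sources used here do not say if an annotation guided assembly. The files give no read counts, so depth in reads is unknown, and relative depth (coverage over FPKM) ran from 0.802 to 1.34.

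Of 193769 spliced transcripts, 188566 (97.3%) were named by shared introns and same-strand overlap with GENCODE v44 genes at their GRCh38 exon positions. FPKM was summed per gene over transcripts of at least 300 bases. All genes averaging 1 FPKM or more entered 1 limma 3.58.1 fit (R 4.3.3) on log2(FPKM + 1) over all 9 libraries, with a variance prior that follows the mean, 6 residual degrees of freedom and Benjamini-Hochberg adjustment at 0.05 over 11941 genes. On simulated data for 6 against 0 µM (11941 genes), 46% of genes changed by 1 and 87% of those changed by 2 on the log2 scale were recovered. Gene coordinates are those of RefSeq (GRCh38.p14).

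Alternatives were another pseudocount (0.1), no filter or a mean of at least 5 FPKM, 2 scalings, short transcripts kept, the consensus exon value, the replicate number as a block, no trend in the prior, and each library left out. FPKM times length was added after seeing the data. The genes and lists were chosen with earlier results of these data known. All 10 genes are named with their values. Of each further list the genes that passed at either dose are named, otherwise the 3 with the largest difference at 6 µM, and the 5 genes of most similar pattern. A gene that this rule also names is not reported here.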

Additional observations from a re-analysis of the deposited data

Results flagged for a closer look

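Spliced transcripts under 300 bases, which the gene values leave out, carried signal named HLA-DRB5 in 4 libraries that received the compound and in none at 0 µM. They were listed at 104 FPKM in replicate 1, 1134 FPKM in replicate 2 and 85.2 FPKM in replicate 3 at 4 µM, and at 96.0 FPKM in replicate 3 at 6 µM. Unspliced short pieces of the same exon stood at 50445 and 184470 FPKM in replicates 2 and 3 at 0 µM, so the region was not without reads there.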

How the results depend on the processing

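None of the 9 measured genes passed limma's test in any of the 3 comparisons under the main setting or any of the 19 alternatives run. With the replicate number as a block 0 passed as well, and the mean log2 differences over the 10 genes, 0.05 at 4 µM and 0.14 at 6 µM, are the same in a balanced block. TNFRSF14, which passed without the block, then had adjusted p-values of 0.0829 and 0.0523, and the block changed no other call that the text names. The labels give same-numbered libraries of the 3 doses a shared mark but do not say what it marks. The deviations of such libraries from the dose means correlated between -0.02 and 0.14 over 9 pairs, against -0.12 to 0.02 over 18 other pairs. Between 4 and 6 µM same-numbered pairs had r of 0.0836, 0.138 and 0.130, and the others -0.116 to -0.0143. Between 0 µM and the other doses, not every library correlated best with its own number. The main fit leaves the number out, and what the number marks was not tested. With transcripts under 300 bases kept, the mean log2 differences over the 10 genes moved to 0.93 and 0.36, as HLA-DRB5 then took values at 4 and 6 µM. Without 1 library they ran from -0.05 to 0.18 and from 0.03 to 0.25, and rescaled to a fixed sum they were -0.02 and 0.08. Over all genes the calls at 6 against 0 µM went with the setting: 14 genes with the summed value, 525 with the consensus exon value, 456 with FPKM times length, 71 with a mean of at least 5 FPKM, 4 with the block and 13 to 60 without 1 library. At 4 against 0 µM there were 10, or 6 with the stricter filter, 3 with the block and 8 to 30 without 1 library, and at 6 against 4 µM 8, or 3, 1, 4 with FPKM times length, and 3 to 15. The cause was not tested.

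Of 510 alternative values of single genes, 32 had the opposite sign, 0 of them past the threshold. At 6 against 4 µM the median ratio scaling gave 0.018 for HLA-DRA, 0.0178 for HLA-DPB1 and 0.0062 for CD74, short transcripts -0.0946 for HLA-DRB1, the consensus exon value -0.18 for HLA-DQA1, and FPKM times length -0.011 for HLA-DPA1, -0.15 for HLA-DQA1, -0.11 for HLA-DMB and 0.039 for CD74. Against 0 µM the consensus exon value gave 0.14 for HLA-DRB1 at 6 µM and -0.10 for CIITA at 4 µM, and FPKM times length 0.062 for HLA-DMB and -0.23 for CIITA at 4 µM. Leaving out 1 library, the differences at 6 against 4 µM ran from -0.0724 to 0.0285 in HLA-DRA, -0.0328 to 0.27 in HLA-DPA1, -0.15 to 0.21 in HLA-DPB1, -0.25 to 0.43 in HLA-DQA1, -0.0235 to 0.19 in HLA-DMA, -0.23 to 0.56 in HLA-DMB and -0.16 to 0.0657 in CD74. At 4 against 0 µM they ran from -0.0182 to 0.39 in HLA-DPB1, -0.62 to 0.17 in HLA-DMB and -0.21 to 0.43 in CIITA, and at 6 against 0 µM from -0.0372 to 0.375 in HLA-DPB1 and -0.18 to 0.0493 in HLA-DMB. HLA-DMA, HLA-DPA1, HLA-DRA, HLA-DQA1 and CD74 kept their sign against 0 µM at both doses under all of these. CIITA was not tested with the filter of 5 FPKM.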
